A study of Ovis aries with 49 samples.

Results

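COL1A1 and COL1A2 encode the alpha 1 and alpha 2 chains of type I collagen. Both were taken by gene symbol, and each was measured by 1 probe set, so the chains make up 2 of the 9780 genes that have a probe set with a single symbol. RNA from whole adipose tissue of lambs (Ovis aries, twins born to Bluefaced Leicester cross Swaledale ewes) was measured on 49 Human Genome U133 Plus arrays from Affymetrix, so sheep RNA was read with human probes. Sternal, subcutaneous, omental, epicardial and perirenal fat were sampled at 28 days of age (25 arrays, 5 for each depot) and at 7 days of age (24 arrays, 5 for each depot and 4 for subcutaneous fat). According to the methods, a sex-matched twin of each mother was sampled at each age and the depots came from the same animals. The methods also state that the ewes received a standard diet, with or without added canola oil, during lactation. The labels name no treatment, so the diet of each mother is not known here. The labels leave a letter C, common to all titles, without a meaning. They do not define the replicate numbers as animals either, and these numbers appear here as letters (H to O for 28 days, A to G for 7 days). The p-values therefore measure the spread between these arrays.

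Type I collagen is the chief fibre-forming collagen of connective tissue. Its molecule is a triple helix that normally joins alpha 1 chains with an alpha 2 chain, is secreted as procollagen, trimmed at both ends and cross-linked into fibrils. In fat it is made mainly by fibroblasts and adipocyte progenitors, and forms the septa and the mesh around each adipocyte as a depot grows and is remodelled.

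Values are log2 levels from GCRMA, in which 82.7% of all values lay below 4, near the lowest signal of 2.49. COL1A1 ranged from 6.54 to 12.73 and COL1A2 from 9.21 to 12.14 over the 49 arrays, so neither chain came near the lowest signal. COL1A1 varied more than nearly every other probe set, with an SD over the arrays of 1.58 that ranked it 27 of 10273, and COL1A2 ranked 187 with an SD of 0.73. Probe sets differ in how they bind, so a higher value in 1 probe set than in another is not read as more RNA. Statements that the arrays of groups do not overlap describe the values only. The share of all probe sets that separate groups in this way was not counted. Fewer collagen-making cells and less collagen RNA per cell cannot be told apart in whole tissue.

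Of 8 measured adipocyte markers, DGAT2 and CD36 averaged at least 8.61 in every group, whereas FABP4, CIDEC, LIPE, PPARG and ACSL1 stayed below 4 on every array. Muscle RNA was present on part of the arrays. The level of CKM, which encodes muscle creatine kinase, exceeded 4 at 28 days in 3 sternal arrays (12.72 in J, 4.51 in N, 11.32 in O) and in 2 subcutaneous arrays (7.11 in J, 4.11 in M). At 7 days it exceeded 4 in 1 sternal array (8.29 in D) and in 3 of the 4 subcutaneous arrays (12.95 in A, 6.35 in E, 11.71 in G). In epicardial fat CKM averaged 7.57 ± 2.99 at 28 days and 10.21 ± 1.50 at 7 days (SD, n = 5 each), and in omental and perirenal fat no group averaged above 2.84. For COL1A1 and COL1A2, part of the results that rest on sternal or subcutaneous fat is given also without these 9 arrays. Differences between depots in the change with age are given only with them. The same holds for all other genes and for the gene lists.

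At 28 days, type I collagen RNA was high in sternal and subcutaneous fat, intermediate in omental and epicardial fat and low in perirenal fat. COL1A1 reached 11.41, 9.94, 12.34, 12.69 and 11.69 in sternal replicates I, J, M, N and O. In subcutaneous replicates H, I, J, M and N it reached 11.59, 9.96, 11.14, 12.73 and 11.41. Apart from 1 array in each depot near 10, both depots lay above every array of the other 3. Omental replicates I, J, M, N and O held 10.05, 9.37, 9.83, 9.31 and 10.22, and epicardial replicates I, J, L, N and O held 9.41, 9.22, 9.07, 9.71 and 9.48. In perirenal replicates I, J, K, M and N the COL1A1 level was 6.54, 8.05, 6.93, 7.56 and 9.22, so that 4 of 5 perirenal arrays lay below every array of the other depots at this age.

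The COL1A2 levels covered a narrower span, with subcutaneous fat on top and perirenal fat lowest. Sternal replicates I, J, M, N and O held 11.17, 10.79, 11.89, 11.98 and 11.53, and subcutaneous replicates H, I, J, M and N held 11.60, 11.26, 12.14, 12.02 and 11.17. COL1A2 was 11.13, 10.76, 11.24, 11.09 and 11.38 in the omental arrays (I, J, M, N, O), and 10.75, 10.60, 10.65, 10.69 and 10.44 in the epicardial arrays (I, J, L, N, O). The 5 epicardial values were the closest together. Perirenal replicates I, J, K, M and N held 9.30, 10.06, 9.69, 9.83 and 10.52, and only replicate N reached the epicardial range.

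**Figure D1:**
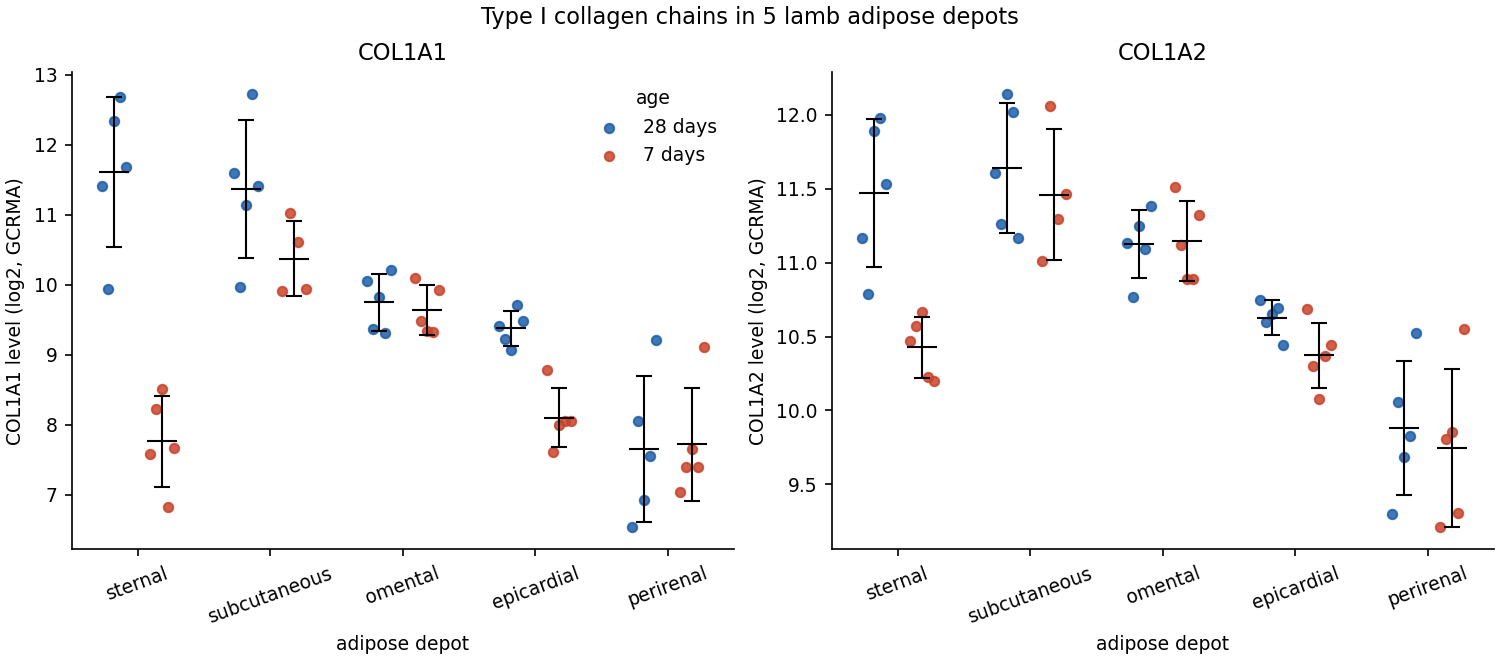
Log2 levels of COL1A1 (left panel) and COL1A2 (right panel) in each depot on the horizontal axis, with 28 days (blue) left of 7 days (red). Points are arrays, horizontal bars are means and whiskers are 1 SD (n = 5, and 4 for subcutaneous fat at 7 days). Sternal COL1A1 lies between 9.94 and 12.69 at 28 days and between 6.83 and 8.52 at 7 days.

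Both chains differed between depots at 28 days by limma's F test (COL1A1: F = 20.9, adjusted p = 3.27e-05; COL1A2: F = 19.6, adjusted p = 4.77e-05), in a comparison that called 20% of all probe sets (a call is an adjusted p no higher than 0.05). Each depot was then set against the mean of the other 4. Sternal fat was higher in COL1A1 by 2.07 ± 0.39 on the log2 scale (SE, 4.21-fold, limma adjusted p = 0.000764) and in COL1A2 by 0.65 ± 0.18 (adjusted p = 0.0129). In that comparison 170 probe sets (1.65%) were called higher and 1891 (18.4%) lower. Under quantile normalization the split turned, with 601 (5.85%) higher and 354 (3.45%) lower, and both chains stayed called. The shares given below for the pairs of sternal fat with omental, epicardial and perirenal fat at this age depend on the scaling in the same way, and were 3.57%, 3.72% and 3% called higher under quantile normalization. The COL1A2 call was lost without sternal replicate M or N (highest adjusted p = 0.0645 over all arrays left out in turn).

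Subcutaneous fat was higher than the other depots in COL1A1 by 1.77 ± 0.39 (SE, 3.40-fold, limma adjusted p = 0.0131) and in COL1A2 by 0.86 ± 0.18 (1.82-fold, adjusted p = 0.00832), against 2.58% of all probe sets called higher. Without subcutaneous replicate M the COL1A1 difference was 1.43 and no longer called (adjusted p = 0.065). Without the arrays with CKM above 4, both subcutaneous calls were lost (1.32, adjusted p = 0.153 for COL1A1, and 0.55, adjusted p = 0.189 for COL1A2), while sternal fat stayed called for both chains (2.43, adjusted p = 0.00411, and 0.78, adjusted p = 0.0324). Of the 2 sternal arrays with the most CKM, replicate J had the lowest COL1A1 of its group (9.94) and replicate O a level of 11.69, above replicate I (11.41), in which CKM was 2.73.

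Perirenal fat was lower than the other 4 depots, with a difference of -2.87 ± 0.39 in COL1A1 (SE, 7.30-fold, limma adjusted p = 0.000156) and -1.34 ± 0.18 in COL1A2 (2.52-fold, adjusted p = 0.000121). Only 0.487% of probe sets were called lower in that comparison. Omental and epicardial fat were not called for either chain, against 5.12% and 3.24% of probe sets called. The COL1A1 difference was -0.25 (95% interval -1.07 to 0.57) for omental fat and -0.72 (-1.54 to 0.10) for epicardial fat, and the COL1A2 differences were 0.22 (-0.15 to 0.59) and -0.40 (-0.77 to -0.03).

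Pairs of depots at 28 days separated the ends of the order but not its neighbours. The test called 6 of 10 pairs for COL1A1 and 5 of 10 for COL1A2. Sternal fat exceeded perirenal fat in COL1A1 by 3.95 ± 0.50 (SE, 15.5-fold, limma adjusted p = 2.18e-05) and in COL1A2 by 1.59 ± 0.23, against 0.72% of probe sets called higher. Subcutaneous fat exceeded perirenal fat by 3.71 ± 0.50 in COL1A1 and 1.76 ± 0.23 in COL1A2, against 1.05% called higher. For omental minus perirenal fat the differences were 2.09 ± 0.50 in COL1A1 (adjusted p = 0.0211) and 1.24 ± 0.23 in COL1A2 (adjusted p = 0.00282), against 1.9% called higher. The COL1A1 call in that pair was lost without omental replicate O or perirenal replicate I or K.

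Against epicardial fat, sternal fat was higher by 2.23 ± 0.50 in COL1A1 (SE, limma adjusted p = 0.0045) and 0.84 ± 0.23 in COL1A2 (adjusted p = 0.017, and 0.054 without sternal replicate N), with 0.604% of probe sets called higher. Subcutaneous fat was higher than epicardial fat by 1.99 ± 0.50 in COL1A1 (adjusted p = 0.028) and 1.01 ± 0.23 in COL1A2 (adjusted p = 0.014), against 1.47%. Both subcutaneous calls were lost without the arrays with CKM above 4, and the COL1A1 call was also lost when any of 6 single arrays was left out. Sternal fat exceeded omental fat in COL1A1 by 1.86 ± 0.50 (adjusted p = 0.0123, against 0.555% called higher), while COL1A2 differed by 0.35 (95% interval -0.13 to 0.82) and was not called.

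No pair of neighbours in the order was called for either chain over all arrays. Sternal minus subcutaneous fat was 0.25 in COL1A1 (95% interval -0.79 to 1.28) and -0.17 in COL1A2 (-0.64 to 0.30), where 11.3% of probe sets were called. Subcutaneous minus omental fat was 1.61 in COL1A1 (0.58 to 2.65, limma adjusted p = 0.114) and 0.51 in COL1A2 (0.04 to 0.99), where 2.08% were called. Omental minus epicardial fat was 0.37 in COL1A1 (-0.66 to 1.41) and 0.50 in COL1A2 (0.03 to 0.97), with 3.07% called. For epicardial minus perirenal fat the values were 1.72 in COL1A1 (0.69 to 2.75, adjusted p = 0.0765) and 0.75 in COL1A2 (0.28 to 1.22, adjusted p = 0.0986), with 2.16% called. Without perirenal replicate N the last pair was called for both chains (2.11, adjusted p = 0.0202, and 0.91, adjusted p = 0.0368), and without subcutaneous replicate I the pair of subcutaneous and omental fat was called for COL1A1 (1.96, adjusted p = 0.0376).

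At 7 days, sternal fat stood at the low end instead. COL1A1 was 7.59, 8.23, 8.52, 6.83 and 7.67 in sternal replicates B, D, E, F and G, and 9.92, 11.02, 10.61 and 9.94 in subcutaneous replicates A, E, F and G. All 4 subcutaneous arrays exceeded all 5 sternal arrays. Omental replicates A, C, D, E and G held 10.10, 9.49, 9.33, 9.33 and 9.93, all above the sternal and epicardial arrays. Epicardial replicates A, C, D, E and G held 8.78, 7.61, 7.99, 8.05 and 8.06, and perirenal replicates A, B, C, D and G held 7.04, 7.40, 7.66, 7.41 and 9.12. Sternal, epicardial and perirenal fat overlapped at this age.

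COL1A2 at 7 days was 10.47, 10.57, 10.66, 10.23 and 10.20 in sternal replicates B, D, E, F and G. Subcutaneous replicates A, E, F and G held 11.01, 12.06, 11.30 and 11.46. In omental replicates A, C, D, E and G it was 11.51, 11.12, 10.89, 10.89 and 11.32, so every subcutaneous and omental array lay above every sternal array. Even so, the difference between sternal and omental fat was not called (limma adjusted p = 0.155). Epicardial replicates A, C, D, E and G held 10.68, 10.30, 10.08, 10.37 and 10.44, within the sternal range or close to it. Perirenal replicates A, B, C, D and G held 9.21, 9.81, 9.86, 9.31 and 10.55, and replicate G, the highest perirenal array for both chains, was the only perirenal array to reach the sternal and epicardial levels.

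The F test over depots at 7 days gave F = 21.7 for COL1A1 (limma adjusted p = 5.8e-05) and F = 18.4 for COL1A2 (adjusted p = 0.000168), against 8.16% of probe sets called. Sternal fat was lower than the other 4 depots in COL1A1, with a difference of -1.19 ± 0.28 (SE, 2.29-fold, adjusted p = 0.0334), where 0.925% of probe sets were called lower. That call was lost without sternal replicate B, F or G (highest adjusted p = 0.129), under quantile normalization (-1.05, adjusted p = 0.0816) and with all arrays in 1 fit (adjusted p = 0.0567). Sternal COL1A2 differed by -0.25 (95% interval -0.61 to 0.10) and was not called. Subcutaneous fat was higher in COL1A1 by 2.07 ± 0.30 (4.19-fold, adjusted p = 0.000819) and in COL1A2 by 1.03 ± 0.19 (2.05-fold, adjusted p = 0.00532), against 0.827% called higher. Only subcutaneous replicate F had CKM below 4. With that array alone for the depot, assumed to vary like the other groups, the COL1A1 difference was 2.33 (adjusted p = 0.0298) and the COL1A2 difference 0.88 (adjusted p = 0.297).

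Omental fat at 7 days was higher than the other depots in COL1A1 by 1.15 ± 0.28 (SE, limma adjusted p = 0.0365), against 0.565% of probe sets called higher, and the call was lost in 13 of 24 runs that left out 1 array, under quantile normalization (1.10, adjusted p = 0.0563) and with all arrays in 1 fit (adjusted p = 0.0624). Its COL1A2 difference of 0.64 ± 0.17 was not called (adjusted p = 0.0632). Perirenal fat was lower, with differences of -1.24 ± 0.28 in COL1A1 (adjusted p = 0.0105) and -1.10 ± 0.17 in COL1A2 (adjusted p = 0.000473), against 0.535% called lower, and the COL1A1 call was lost without perirenal replicate A (adjusted p = 0.0541). Epicardial fat differed by -0.77 in COL1A1 (95% interval -1.35 to -0.20, adjusted p = 0.147) and by -0.32 in COL1A2 (-0.67 to 0.03), with 4.07% of probe sets called.

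Among the pairs at 7 days, 6 of 10 were called for COL1A1 and 5 of 10 for COL1A2. Sternal fat was lower than subcutaneous fat, with differences of -2.61 ± 0.37 in COL1A1 (SE, 6.09-fold, limma adjusted p = 0.000562) and -1.03 ± 0.23 in COL1A2 (adjusted p = 0.0233), against 0.788% called lower. It was also lower than omental fat in COL1A1 (-1.87 ± 0.35, adjusted p = 0.00828, against 0.467% called lower), whereas the COL1A2 difference of -0.72 ± 0.21 was not called (adjusted p = 0.155). The subcutaneous depot exceeded epicardial fat by 2.27 ± 0.37 in COL1A1 and 1.08 ± 0.23 in COL1A2 (0.672% called higher; the COL1A2 call was lost without subcutaneous replicate E, adjusted p = 0.0524), and exceeded perirenal fat by 2.65 ± 0.37 and 1.71 ± 0.23 (0.964%). Omental fat exceeded epicardial fat by 1.54 ± 0.35 in COL1A1 (adjusted p = 0.0122) and 0.77 ± 0.21 in COL1A2 (adjusted p = 0.0439), against 0.818% called higher. The COL1A2 difference between sternal and subcutaneous fat, and that between omental and epicardial fat, were not called in 4 of 9 and 7 of 10 runs that left out 1 array. Omental minus perirenal fat was 1.91 ± 0.35 in COL1A1 and 1.40 ± 0.21 in COL1A2 (0.769% called higher).

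The remaining pairs at 7 days were not called over all arrays. Sternal minus epicardial fat was -0.33 in COL1A1 (95% interval -1.06 to 0.39) and 0.05 in COL1A2 (-0.39 to 0.50), with 3.93% of probe sets called. Sternal minus perirenal fat was 0.04 in COL1A1 (-0.69 to 0.77) and 0.68 in COL1A2 (0.23 to 1.13, limma adjusted p = 0.122), with 1.85% called. Subcutaneous minus omental fat was 0.74 in COL1A1 (-0.03 to 1.51) and 0.31 in COL1A2 (-0.16 to 0.79), where 0.204% of probe sets were called. Epicardial minus perirenal fat was 0.38 in COL1A1 (-0.35 to 1.10) and 0.63 in COL1A2 (0.18 to 1.07), with 2.37% called. Without perirenal replicate G, COL1A2 was called for sternal minus perirenal fat (0.88, adjusted p = 0.0171) and for epicardial minus perirenal fat (0.83, adjusted p = 0.0219). In the order of COL1A1 levels, the omental and epicardial depots were the only neighbours that the test separated at 7 days, and among neighbours in the COL1A2 order none was called.

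The comparison of ages asked how each depot differed between 28 and 7 days. According to the methods, more tissue went into the RNA isolation at 28 days than at 7 days. Age and tissue input therefore cannot be told apart. Sternal fat stood out for both chains. Its COL1A1 averaged 11.61 ± 1.07 at 28 days and 7.77 ± 0.65 at 7 days (SD, n = 5 each), a rise of 3.85 ± 0.44 (SE, 14.4-fold, limma adjusted p = 3.72e-08). Sternal COL1A2 averaged 11.47 ± 0.50 at 28 days and 10.43 ± 0.20 at 7 days, a rise of 1.04 ± 0.22 (2.06-fold, adjusted p = 0.00153). In sternal fat 2.47% of all probe sets were called higher at 28 days. Without the arrays with CKM above 4, which left 2 sternal arrays at 28 days (replicates I and M) and 4 at 7 days, the rises were 4.23 in COL1A1 and 1.13 in COL1A2 (adjusted p = 0.0105), and both were called. Leaving out any 1 sternal array gave rises of 3.58 to 4.27 in COL1A1 and 0.92 to 1.21 in COL1A2, all called. In a fit of the sternal arrays alone the COL1A2 rise was no longer called (adjusted p = 0.0711).

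In the other depots no change with age was called. Epicardial COL1A1 averaged 9.38 ± 0.25 at 28 days and 8.10 ± 0.42 at 7 days (SD, n = 5 each), a difference of 1.28 ± 0.44 (SE, limma adjusted p = 0.0788). Epicardial fat had 5.84% of probe sets called, and this COL1A1 difference passed the threshold in the fit of epicardial arrays alone (adjusted p = 0.015) and with low probe sets (mean below 4) left out (adjusted p = 0.0264). CKM differed by -2.64 between 28 and 7 days in this depot (adjusted p = 0.42), and its part in the difference was not tested. Subcutaneous COL1A1 averaged 11.37 ± 0.99 at 28 days (n = 5) and 10.37 ± 0.54 at 7 days (n = 4), a difference of 0.99 ± 0.46 (adjusted p = 0.192), in a depot with 9.25% of probe sets called.

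In omental and perirenal fat the differences lay near 0. Omental COL1A1 averaged 9.75 ± 0.41 at 28 days and 9.64 ± 0.36 at 7 days (SD, n = 5 each), a difference of 0.12 (95% interval -0.77 to 1.00), although 14.6% of probe sets were called with age in this depot. Perirenal COL1A1 averaged 7.66 ± 1.05 at 28 days and 7.72 ± 0.81 at 7 days, a difference of -0.06 (-0.95 to 0.82), with 9.32% of probe sets called. For COL1A2 the difference between ages was 0.18 (-0.30 to 0.66) in subcutaneous, -0.02 (-0.47 to 0.43) in omental, 0.25 (-0.20 to 0.71) in epicardial and 0.13 (-0.32 to 0.58) in perirenal fat.

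**Figure D2:**
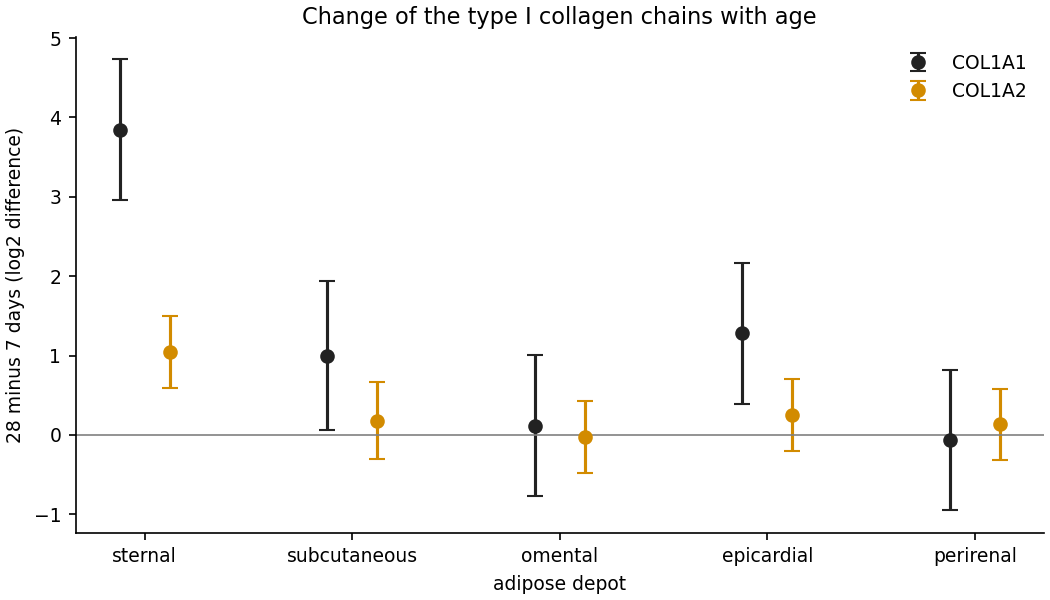
Difference in log2 level between 28 and 7 days (28 minus 7) for COL1A1 (black) and COL1A2 (orange) in each depot, with 95% intervals from limma. Sternal fat stands at 3.85 for COL1A1 and 1.04 for COL1A2, and the intervals of COL1A2 in the other 4 depots include 0.

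The change with age differed between depots for COL1A1 (F test of the interaction, F = 12.8, limma adjusted p = 0.000123), where 9.17% of probe sets were called. Every called pair of depots included sternal fat. Its rise in COL1A1 exceeded the change in subcutaneous fat by 2.85 ± 0.64 (SE, adjusted p = 0.0051, against 0.613% of probe sets called higher) and that in omental fat by 3.73 ± 0.62 (adjusted p = 9.85e-05, against 0.526%). It exceeded the epicardial change by 2.57 ± 0.62 (adjusted p = 0.0219, against 0.195% called higher; 2.30 and adjusted p = 0.0594 without sternal replicate N at 28 days). Over the perirenal change it rose by 3.91 ± 0.62 more (adjusted p = 0.000264, against 0.165%). Of the 6 pairs of depots without sternal fat, limma called none for COL1A1, with 1 at an unadjusted p under 0.05, and none for COL1A2, with 0 at that level.

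For COL1A2 the interaction was not called (F = 3.46, limma adjusted p = 0.106), and it was called without sternal replicate J at 28 days (F = 4.81, adjusted p = 0.0366) and with low probe sets (mean below 4) left out (F = 3.42, adjusted p = 0.0417). The sternal rise in COL1A2 exceeded the omental change by 1.06 ± 0.32 (SE, adjusted p = 0.0282), a call that 4 single arrays could undo. Against subcutaneous, epicardial and perirenal fat it was greater by 0.86 (95% interval 0.20 to 1.52), 0.79 (0.15 to 1.43) and 0.91 (0.27 to 1.55), and none of these was called.

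The chains moved together, with COL1A1 covering the wider range. Over the 49 arrays, which share depots and ages, Pearson's r between COL1A1 and COL1A2 was 0.91 and Spearman's rho 0.94. With the group means removed r was 0.82, and over the 10 group means it was 0.94. The SD of COL1A1 was 2.17 times that of COL1A2 over all arrays, 2.25 times at 28 days and 1.74 times at 7 days, on the log2 scale of each probe set. These values describe arrays that share animals and normalization, and they compare signals of 2 probe sets, not transcripts.

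**Figure D3:**
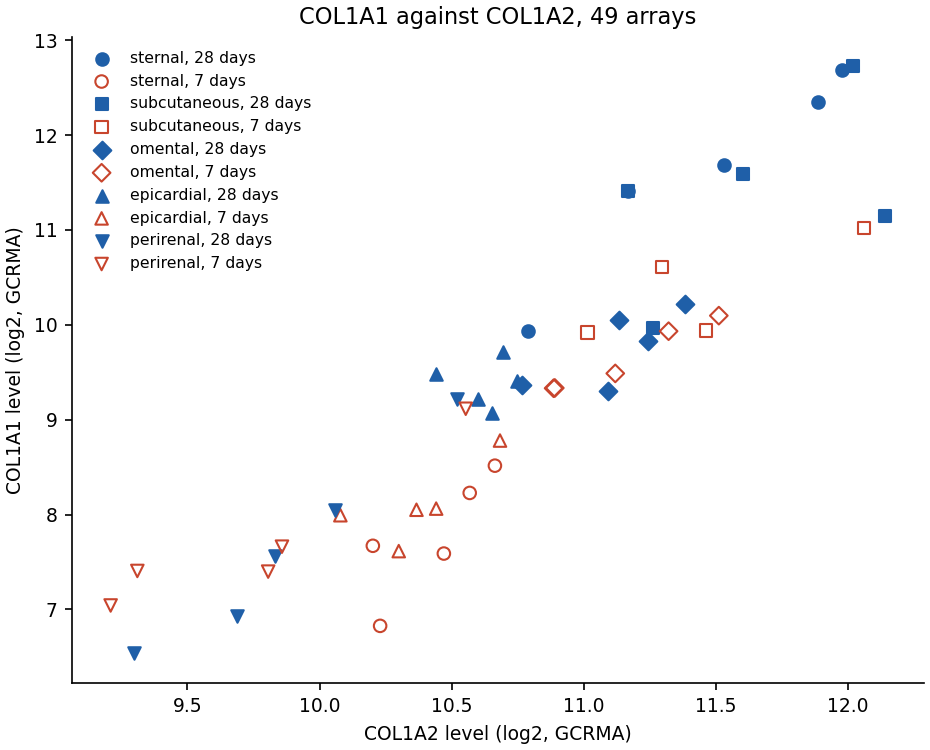
COL1A1 level against COL1A2 level (both log2) on each of the 49 arrays, with filled blue symbols at 28 days, open red symbols at 7 days and a symbol shape for each depot. The points run along 1 band (r = 0.91), with the sternal arrays at 7 days at its lower edge, where COL1A1 lies between 6.83 and 8.52.

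The difference COL1A1 minus COL1A2 within an array compares the changes of the 2 signals, and its own value has no meaning as a ratio of transcripts. COL1A1 had an SD 2.17 times that of COL1A2 over all arrays, so a change shared by both chains also shifts this difference. Unequal change of the chains and unlike response of the probe sets cannot be told apart. The tests of this difference are not independent of those of COL1A1. In sternal fat the difference averaged 0.14 ± 0.60 at 28 days and -2.66 ± 0.50 at 7 days (SD, n = 5 each), a shift of 2.80 (two-sided exact permutation test, p = 0.00794, the smallest that these group sizes allow, adjusted p = 0.0198 over 5 depots). In epicardial fat it averaged -1.25 ± 0.27 at 28 days and -2.27 ± 0.30 at 7 days, a shift of 1.03 with the same exact p and adjusted p. The shift was 0.81 in subcutaneous fat (exact p = 0.119), 0.14 in omental fat (exact p = 0.325) and -0.20 in perirenal fat (exact p = 0.548). Without the arrays with CKM above 4, the sternal shift was 3.09 over 2 arrays at 28 days and 4 at 7 days (exact p = 0.0667, the smallest that these group sizes allow, so that no call was possible), and the subcutaneous shift could not be tested.

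Set against all arrays of the other depots of the same age, the within-array difference was higher in sternal fat at 28 days by 1.42 (two-sided exact permutation test, adjusted p = 0.00588 over 10 tests) and lower at 7 days (-0.90, adjusted p = 0.00588). It was lower in perirenal fat at 28 days (-1.53, exact adjusted p = 0.00471) and higher in subcutaneous fat at 7 days by 1.03 (adjusted p = 0.00471). The other 6 of these tests had exact adjusted p-values from 0.143 to 0.764.

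**Figure D4:**
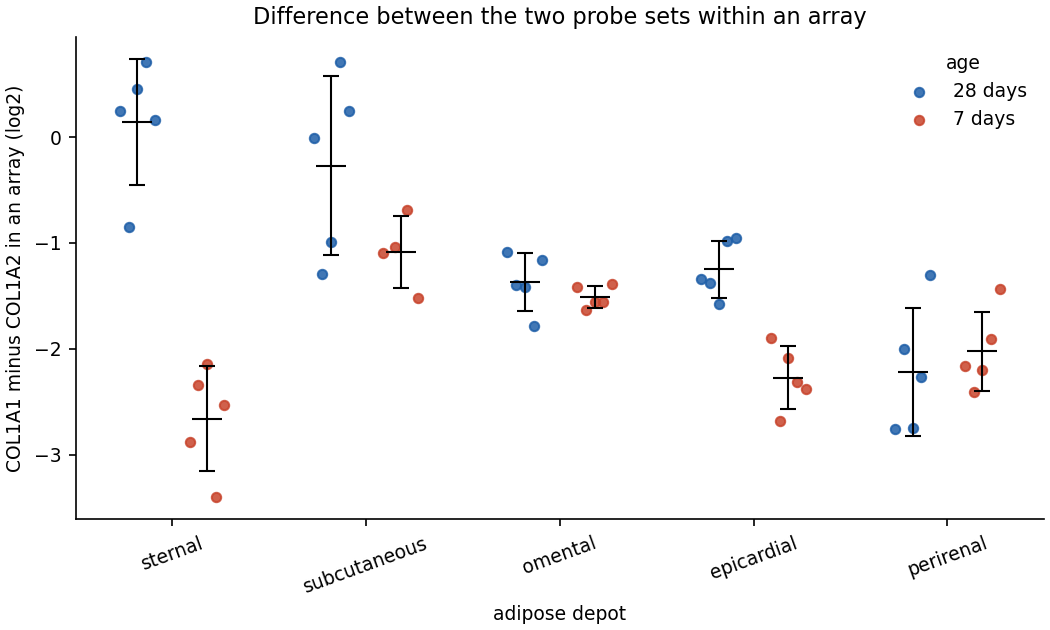
COL1A1 minus COL1A2 on the same array (log2) in each depot, with 28 days (blue) left of 7 days (red), each point an array, with means and 1 SD. The sternal means are 0.14 at 28 days and -2.66 at 7 days, and the omental means are -1.37 and -1.51.

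The genes closest to the chains were named by their Pearson correlation with each chain over the 49 arrays. Next to COL1A2, COL1A1 was closest to SERPINF1 (r = 0.86), which encodes the secreted factor PEDF, whose loss in humans causes a form of brittle bone disease. COL3A1, the chain of the fibrillar collagen III that co-assembles with type I, had r = 0.83 with COL1A1 and 0.85 with COL1A2. For COL1A1 the list went on with S100A4, a calcium-binding protein of fibroblasts (r = 0.79), THBS3, a thrombospondin of the matrix (0.78), and NFIX, a transcription factor (0.78). For COL1A2 it held SERPINF1 (0.85), COL5A2, a chain of the collagen V that nucleates type I fibrils (0.84), TENT5A, a poly(A) polymerase that in mouse bone cells extends the poly(A) tails of collagen mRNAs (0.81), and THBS3 (0.81). With the group means removed, r with COL1A1 was 0.66 for SERPINF1, 0.53 for COL3A1, 0.45 for S100A4, 0.33 for THBS3 and 0.45 for NFIX, and with COL1A2 0.73 for COL3A1, 0.60 for SERPINF1, 0.56 for COL5A2, 0.57 for TENT5A and 0.51 for THBS3.

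**Figure D5:**
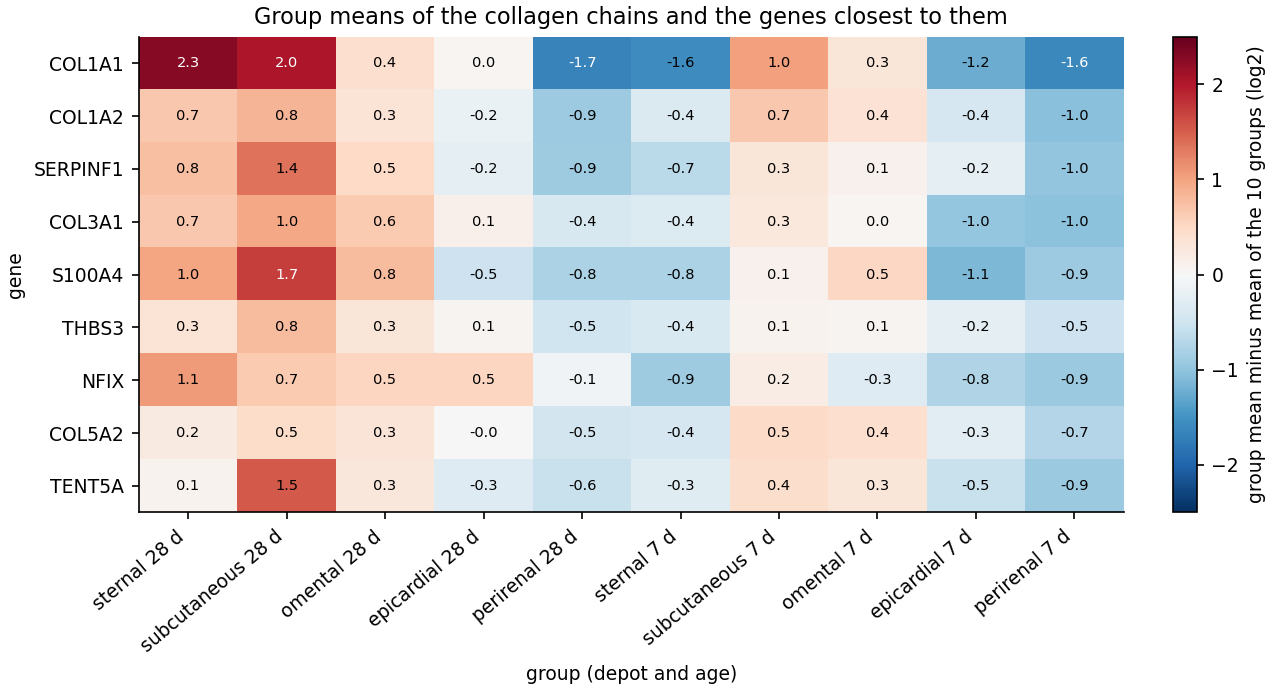
Group means of COL1A1, COL1A2 and the 7 other genes closest to them (rows), as log2 difference from the mean of the 10 groups, at 28 days (first 5 columns) and 7 days (last 5 columns). Red is above and blue below that mean, and perirenal fat is blue for all 9 genes at both ages, though NFIX at 28 days lies at only -0.09.

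These genes were chosen for following the chains over the same arrays, so their differences are given here as a description, with no test. TENT5A stood apart in subcutaneous fat at 28 days, where it was higher than in the other depots by 1.65, and in sternal fat it differed by 0.39 between the ages. NFIX was higher at 28 days than at 7 days by 1.94 in sternal fat, 1.29 in epicardial, 0.87 in omental and 0.83 in perirenal fat. SERPINF1 was higher at 28 days by 1.42 in sternal fat and by 1.05 in subcutaneous fat. Its mean stayed below 4 in 6 of the 10 groups.

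Fibril partners of type I collagen were measured for 8 of 8 listed chains, of which COL5A1, COL11A1, COL12A1, COL14A1 and COL16A1 were below 4 on every array. COL3A1 and COL5A2, named above among the genes that follow the chains, are not independent of them. COL3A1 was higher at 28 days in all 5 depots, by 1.03 in sternal (limma adjusted p = 0.000797), 0.70 in subcutaneous, 0.60 in omental, 1.09 in epicardial and 0.63 in perirenal fat (highest adjusted p = 0.0477), and under quantile normalization it was not called in omental (0.48, adjusted p = 0.193) or perirenal fat (0.40, adjusted p = 0.333). Its interaction of depot and age was not called (adjusted p = 0.573). COL5A2 was called higher with age in sternal fat only (0.64, adjusted p = 0.0423, and 0.0501 under quantile normalization), and its interaction was not called either (adjusted p = 0.304). In perirenal fat at 28 days both were lower than in the other depots, with differences of -0.999 in COL3A1 (adjusted p = 0.000757) and -0.70 in COL5A2 (adjusted p = 0.00898). Of 16 measured chains among 31 other collagens, none was called with age in sternal fat and 3 were called lower there than in the other depots at 28 days, a share close to the 18.4% of all probe sets called lower, with differences of -0.82 in COL27A1, -0.61 in COL13A1 and -0.33 in COL11A2. Of these 16 chains, 10 were below 4 on every array, which limits what the counts can show.

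Of the genes that make and export type I collagen, 3 were called with age in sternal fat, where 2.47% of all probe sets were called higher and 3.89% lower. Of 9 measured genes for procollagen modification and folding among 19 listed, 7 were below 4 on every array, among them SERPINH1, the collagen chaperone HSP47, and P4HB, a subunit of prolyl hydroxylase. In sternal fat 0 were higher and 1 was lower at 28 days against 7 days (PLOD2, a lysyl hydroxylase, -0.43, limma adjusted p = 0.00203), with a median over the list of -0.04 beside -0.0039 over all probe sets. PLOD2 was itself among the 7 genes below 4 on every array. Of 8 measured genes for procollagen export among 14, CREB3L1, a transcription factor that raises secretory capacity and collagen synthesis in bone, was higher at 28 days in sternal fat by 1.23 (adjusted p = 0.000426). SAR1A, a GTPase of the vesicle coat COPII, was lower there (-0.86, adjusted p = 0.017). Of 8 measured genes for propeptide cleavage and cross-linking among 15, none was called with age in sternal fat by limma. However, 6 of the 8 were below 4 on every array, among them LOX, which cross-links collagen.

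Proteins that bind the fibril followed. Of 17 measured proteoglycans and glycoproteins among 22, 7 were higher and 1 was lower at 28 days than at 7 days in sternal fat, where 2.47% of all probe sets were called higher, with a median of 0.26 beside -0.0039 over all probe sets. DPT (dermatopontin) rose by 2.37 (limma adjusted p = 0.000109), BGN (biglycan) by 1.80, DCN (decorin, which binds and spaces type I fibrils) by 1.07 (adjusted p = 6.39e-05) and MFAP5, a protein of elastic microfibrils, by 1.15. With age 2 of them were called in subcutaneous fat, 2 in omental, 0 in epicardial and 1 in perirenal fat, all higher, where 7.68%, 13.5%, 4.21% and 6.23% of all probe sets were called higher. Under quantile normalization the numbers were 1, 1, 0 and 0. In perirenal fat at 28 days, 0 were higher and 7 lower than in the other depots (median -0.18 beside 0.0031 over all probe sets, of which 2.87% were called higher and 0.487% lower). They included FN1, the fibronectin on which cells assemble collagen, with -2.04 (adjusted p = 0.000108), and MFAP5 with -1.35. In subcutaneous fat at 28 days 4 were higher, beside 2.58% of all probe sets, POSTN (periostin) by 1.48 among them, and DPT was lower (-1.52, adjusted p = 0.000617), beside 0.458% called lower.

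Of 7 measured genes for collagen breakdown and uptake among 16, TIMP2, an inhibitor of matrix metalloproteinases, was higher at 28 days in all 5 depots, by 2.68 in sternal (limma adjusted p = 6.65e-08), 2.28 in subcutaneous, 1.36 in omental, 1.06 in epicardial and 1.25 in perirenal fat. MMP2, a gelatinase, was higher in sternal fat by 0.48 (adjusted p = 0.0163). Of all probe sets, 2.47% were called higher with age in sternal, 7.68% in subcutaneous, 13.5% in omental, 4.21% in epicardial and 6.23% in perirenal fat. Of the 7 genes, MMP14, CTSL and MRC2 were below 4 on every array. Among 5 measured collagen receptors of 10, DDR2, a receptor kinase that fibrillar collagen activates, was higher at 28 days by 0.64 in sternal, 1.61 in subcutaneous and 0.52 in omental fat, of which the omental difference was not called under quantile normalization (0.26, adjusted p = 0.538). Of the 5 receptors, ITGA1, ITGA11 and LAIR1 were below 4 on every array. Counts of the other members of these lists are not given here.

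Regulators of type I collagen were measured for 22 of 28 listed genes, 10 of them below 4 on every array, TGFB1 included. Against 7 days, sternal fat at 28 days had 1 higher and 2 lower of 22, beside 2.47% and 3.89% of all probe sets. CCN2, the connective tissue growth factor downstream of TGF-beta, rose by 0.51 (limma adjusted p = 0.0318), and YBX1 and SP3, which bind collagen gene promoters, fell by 0.56 and 0.52. The YBX1 call was lost under quantile normalization (-0.35, adjusted p = 0.132). Against the other depots at 28 days, where both chains were higher in sternal fat, 0 regulators were higher and 8 lower, in a comparison that called 18.4% of all probe sets lower. Under quantile normalization 0 were higher and 4 lower, beside 3.45% called lower. They were led by TRPS1 (-1.20), NFYC (-0.79), SMAD2 (-0.71) and SP1 (-0.70), with a list median of -0.13 beside -0.07 over all probe sets. CEBPB, a transcription factor of adipocyte differentiation that also acts on collagen genes, was higher in perirenal fat at 28 days by 0.98 (limma adjusted p = 0.000121) and at 7 days by 0.54 (adjusted p = 0.0074). Of all probe sets, 2.87% were called higher there at 28 days and 470 of 10273 at 7 days. Counts of the other regulators in this depot are not given here, and a relation of CEBPB to the collagen levels was not tested.

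Markers of the cells that could carry collagen RNA are given beside the sternal rise. Of 8 measured fibroblast markers among 12, 3 were higher at 28 days in sternal fat and 0 lower, beside 2.47% and 3.89% of all probe sets. They were S100A4 by 1.78 (limma adjusted p = 0.00376), PDGFRA by 0.83 and VIM by 0.55. S100A4, named above among the genes that follow COL1A1, is not independent of it. The summed signal of the 8 markers on the log2 scale ran from 8.74 to 9.53 (median 9.33) in sternal fat at 28 days and from 8.35 to 8.61 (median 8.52) at 7 days. In perirenal fat this sum ran from 8.85 to 9.09 at 28 days and from 7.98 to 8.58 at 7 days. The median of the sum was also higher at 28 days than at 7 days in subcutaneous, omental and epicardial fat. Of the 8 fibroblast markers in the sum, THY1 and NT5E were below 4 on every array. The summed signal of 8 adipocyte markers in sternal fat had a median of 10.20 at 28 days and 10.87 at 7 days. In subcutaneous fat this median was 10.25 at 28 days and 11.38 at 7 days. In omental, epicardial and perirenal fat it was higher at 28 days. Of these 8 adipocyte markers, 5 were below 4 on every array. The part of fibroblast and adipocyte numbers in the rise was not tested.

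Sternal fat lies next to the breastbone, and markers of cartilage and bone are given for it. Of 9 measured markers among 19, 7 were below 4 on every array of every depot, so their low values are not particular to sternal fat. A part of cartilage or bone in the sternal values was not tested. COL2A1, the collagen of cartilage, was at most 2.60 on all 10 sternal arrays. It reached 5.15 and 5.01 on subcutaneous replicates N and M at 28 days and 5.97 on subcutaneous replicate F at 7 days. The summed signal of these markers ran from 6.15 to 6.28 in sternal fat at 28 days and from 6.01 to 6.31 at 7 days. Of 15 measured skeletal muscle markers among 17, 2 were called higher with age in sternal fat, beside 2.47% of all probe sets, and their summed signal ran from 6.67 to 13.57 (median 7.12) at 28 days and from 6.57 to 9.38 (median 6.71) at 7 days.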

How the data were processed

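Lamb RNA from 5 adipose depots, at 28 and 7 days of age, was measured on 49 Human Genome U133 Plus arrays. Per the labels and the methods, the authors ran GCRMA through affy, and the deposited values are its log2 levels per probe set, after background correction and normalization between arrays. Their tool versions are not stated in the sources read for this work. The deposited table keeps 10273 probe sets, and the platform annotation gives 1 symbol for 9780, several for 6 and no symbol for 487 of them. A low value can mean low expression or poor matching of a sheep transcript to a human probe, and these cannot be told apart. The number of arrays limits the precision. No array repeated another (highest correlation of a pair 0.990). The age field was used for age, although a description shared by the labels gives a different range.

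Linear models were fitted with limma 3.58.1 (R 4.3.3), within each age for the depots and across the 10 groups for age, with no filter on low values. P-values were adjusted by Benjamini-Hochberg over the 10273 probe sets of a comparison, and a call is an adjusted p no higher than 0.05. COL1A1 minus COL1A2 within an array was compared by two-sided exact permutation tests (scipy 1.17.1). Figures were drawn with matplotlib 3.10.9. The scripts were tested on simulated data.

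Alternatives were quantile normalization, a minimum mean of 4, leaving out sternal and subcutaneous arrays whose CKM exceeded 4, array weights, leaving out each array in turn, the replicate number as a random or fixed block, 1 fit of all arrays, and a fit of only the compared groups. The members, the gene lists and the CKM alternative were chosen with earlier results of these data known. Named genes are the 6 that correlate best with each chain and, of each list, at most 4 called members with the largest difference, plus defining markers near the lowest signal. The marker lists of endothelium, smooth muscle and pericytes, macrophages, mesothelium, tendon and ligament, cardiac muscle and skin had 0 members called with age in sternal fat by limma. Of all probe sets, 2.47% were called higher there and 3.89% lower. Below 4 on every array were 7 of 7 measured markers of endothelium, 2 of 2 of macrophages and 1 of 1 of skin. So were 3 of 5 of mesothelium, 4 of 7 of smooth muscle and pericytes, 2 of 3 of tendon and ligament and 2 of 8 of cardiac muscle. These counts of 0 therefore say little about the cells.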

Additional observations from a re-analysis of the deposited data

Results flagged for a closer look

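The change in COL1A1 between 28 and 7 days differed between depots, with an F of 12.8 for the interaction of depot and age (limma, adjusted p = 0.000123). The COL1A1 change in sternal fat exceeded that in subcutaneous fat by 2.85, in omental fat by 3.73, in epicardial fat by 2.57 and in perirenal fat by 3.91 on the log2 scale, each called by limma's test of the difference itself. The COL1A2 change in sternal fat exceeded that in omental fat by 1.06 (adjusted p = 0.0282). No array of the 30 groups and measures tested for a single far value stood apart by Dixon's criterion.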

How the results depend on the processing

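The sternal rise with age in COL1A1, and the differences of perirenal fat from the other depots at 28 days, kept their calls under every alternative run. The calls at 7 days and those of subcutaneous fat depended more on the processing, and the cause was not tested. Under quantile normalization, 2 COL1A1 calls at 7 days were lost, sternal at -1.05 (adjusted p = 0.0816) and omental at 1.10 (0.0563), and omental COL1A2 was called (0.71, 0.0259). The counts of called list members under this scaling were computed after the data had been seen. A minimum mean of 4, which leaves fewer probe sets to adjust over, added calls at 7 days for COL1A2 in omental fat (0.64, 0.0148) and for COL1A1 in epicardial fat (-0.77, 0.0483), for the epicardial age difference in COL1A1 (1.28, 0.0264) and for the COL1A2 interaction (F = 3.42, 0.0417). Leaving out the arrays with CKM above 4 ended the calls of subcutaneous fat at 28 days (1.32 in COL1A1, 0.153; 0.55 in COL1A2, 0.189), of COL1A2 in subcutaneous fat at 7 days (0.88, 0.297) and of COL1A1 in omental fat at 7 days (1.12, 0.0875), and added that of epicardial COL1A1 with age (1.28, 0.0463). It turned the sign of 3 differences that had not been called, to 0.18 for COL1A2 in sternal minus subcutaneous fat at 28 days, -0.074 for COL1A1 in sternal minus perirenal fat at 7 days and 0.015 for the within-array difference of perirenal fat at 7 days. The sternal shift of COL1A1 minus COL1A2 was then 3.09, beside 2.80 over all arrays, and its adjusted p of 0.133 says nothing about stability, because 2 against 4 arrays cannot pass the threshold. With all 49 arrays in 1 fit, COL1A1 at 7 days was not called in sternal (-1.19, 0.0567) or omental fat (1.15, 0.0624), and omental COL1A2 was (0.64, 0.0359). In fits of only the compared groups, sternal COL1A2 with age was not called (1.04, 0.0711) and epicardial COL1A1 was (1.28, 0.015). Array weights moved no comparison of a depot with the others or of ages across the threshold.

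The labels do not say that replicate numbers pair arrays, and same-numbered arrays correlated in their deviations from the group means with a median r of 0.057 at 28 days (39 pairs, 12 over 0.1) and 0.046 at 7 days (33 pairs, 6 over 0.1). A random replicate block changed none of the 84 results refitted. A fixed replicate block left 51 of 64 results as they were and ended 13 calls, among them subcutaneous fat at 28 days (1.64 in COL1A1, 0.0674; 0.85 in COL1A2, 0.0655) and COL1A1 at 7 days in sternal (-1.13, 0.166), omental (1.09, 0.111) and perirenal fat (-1.15, 0.0585). The other 8 were pairs of depots, 4 at 28 days (COL1A1 subcutaneous minus epicardial and omental minus perirenal, COL1A2 sternal and subcutaneous minus epicardial) and 4 at 7 days (COL1A1 sternal minus omental, COL1A2 sternal minus subcutaneous, and subcutaneous and omental minus epicardial).

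Leaving out each array in turn, the COL1A1 difference from the other depots at 7 days ranged from -1.38 to -0.96 in sternal, 1.03 to 1.23 in omental and -1.59 to -1.07 in perirenal fat, and that of COL1A2 in omental fat from 0.55 to 0.71. At 28 days it ranged from 0.53 to 0.82 for COL1A2 in sternal fat and from 1.43 to 2.12 for COL1A1 in subcutaneous fat. The F of the COL1A2 interaction ran from 2.49 to 4.81. Uncalled differences that crossed 0 were sternal minus epicardial COL1A2 at 7 days (-0.021 to 0.13), sternal minus perirenal COL1A1 at 7 days (-0.15 to 0.39), sternal minus subcutaneous fat at 28 days (-0.11 to 0.66 in COL1A1, -0.30 to 0.0016 in COL1A2), and the age differences of omental COL1A2 (-0.087 to 0.070), perirenal COL1A1 (-0.45 to 0.28) and perirenal COL1A2 (-0.029 to 0.33). With 4 or 5 arrays in a group, and most probe sets near the lowest signal, small changes were not detectable.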
